A study of Mus musculus with 17 samples.

Results

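Meiotic DNA double-strand break formation was followed through 7 genes, *Spo11*, *Gm960* (*Top6bl*), *Mei1*, *Mei4*, *Ccdc36* (*Iho1*), *Prdm9* and *Zcwpw1*, taken by symbol from the 23282 genes of the deposited ERCC-calibrated count table. All 7 were listed. Testicular cells had been sorted by FACS, on Hoechst and propidium iodide, into 3 stages: SPG (spermatogonia), PreL (spermatocytes in pre-leptonema) and LZ (those in leptonema or zygonema). They came from WT mice and from *Nat10*-SKO mice of C57BL/6 background (C57BL/6J in the methods of the study), in which a Stra8-GFPCre knock-in, active in germ cells from before meiosis, excised exons 4 and 5 of the floxed *Nat10* allele opposite a null allele (*Nat10* fl/-;Stra8-GFPCre). *Nat10* encodes the RNA acetyltransferase that makes N4-acetylcytidine. No treatment was given, and the labels state no age, although the sorting profiles of the study came from adult mice. WT and *Nat10*-SKO (SKO in the names of libraries) each had 3 libraries of SPG and 3 of PreL, and LZ had 2 WT and 3 *Nat10*-SKO libraries. Nothing in the labels says that the libraries of a group came from separate mice, so p-values measure only the spread between these libraries.

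Meiotic recombination starts when SPO11, a topoisomerase-like protein, cuts both DNA strands together with its partner TOPOVIBL, the product of *Gm960*. The cut depends on proteins that gather on the chromosome axis in leptonema, among them MEI1, MEI4, REC114 and IHO1, the product of *Ccdc36*. PRDM9 chooses where breaks form by methylating histone H3 at the DNA motifs its zinc fingers bind, and ZCWPW1 reads those marks and is needed for efficient repair of the breaks. In mice, loss of any of these genes disturbs homolog synapsis in spermatocytes. *Spo11* is made in several splice forms, a longer one early in prophase and a shorter one later, which counts per gene do not separate.

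Promoter sequences are shown for 4 members, so that the starts of genes whose rescaled values fell from PreL to LZ in *Nat10*-SKO (*Prdm9*, *Zcwpw1*, *Gm960*) can be read beside that of *Mei4*, which was not called lower. Each runs 5′ to 3′ on the strand of the gene from 250 bases before to 30 bases after the start site that RefSeq gives on GRCm38.p6. The table of promoters held 8 windows for 6 of the 7 members and none for *Spo11*. Capitals mark matches on either strand to 4 motifs: CNCCTCAG for MEIOSIN/STRA8, the factors of meiotic entry, CACGTG for the E-box, TTCCCGC for E2F, and, for A-MYB, a factor of pachytene genes, CAACGG or CAACTG or either of these with T as its first letter.
*Prdm9*, chr17:15564325-15564604, minus strand: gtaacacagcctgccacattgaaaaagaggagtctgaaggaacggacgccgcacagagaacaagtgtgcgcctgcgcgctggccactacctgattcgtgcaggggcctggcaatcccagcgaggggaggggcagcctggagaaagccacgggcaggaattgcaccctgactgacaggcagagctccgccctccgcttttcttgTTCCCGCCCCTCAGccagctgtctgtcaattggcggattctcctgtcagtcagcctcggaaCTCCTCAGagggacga
*Zcwpw1*, chr5:137787552-137787831, plus strand: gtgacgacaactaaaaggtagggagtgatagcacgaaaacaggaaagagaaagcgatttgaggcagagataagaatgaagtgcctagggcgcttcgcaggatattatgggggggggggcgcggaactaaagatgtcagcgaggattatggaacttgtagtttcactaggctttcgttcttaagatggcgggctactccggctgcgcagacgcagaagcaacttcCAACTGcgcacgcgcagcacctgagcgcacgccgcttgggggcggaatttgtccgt
*Mei4*, chr9:81863420-81863699, plus strand: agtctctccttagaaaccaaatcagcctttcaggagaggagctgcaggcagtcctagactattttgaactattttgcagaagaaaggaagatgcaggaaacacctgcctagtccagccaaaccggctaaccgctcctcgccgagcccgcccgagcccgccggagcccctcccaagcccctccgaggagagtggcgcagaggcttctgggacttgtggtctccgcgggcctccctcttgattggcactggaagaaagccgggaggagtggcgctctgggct
*Gm960*, chr19:4698639-4698918, minus strand: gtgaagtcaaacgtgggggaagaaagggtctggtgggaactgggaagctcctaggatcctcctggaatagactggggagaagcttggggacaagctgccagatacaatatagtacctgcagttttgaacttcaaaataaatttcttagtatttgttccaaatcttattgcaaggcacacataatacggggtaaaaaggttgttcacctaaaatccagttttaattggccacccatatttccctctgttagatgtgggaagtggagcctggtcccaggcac

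The *Prdm9* window shown held 2 MEIOSIN/STRA8 matches, starting at positions -41 and 15 from the start site. It also held 1 E2F match at -47 that overlapped the first of them. The other *Prdm9* window matched none of the 4 motifs. Over all 32851 promoters of the table, in windows that reach 50 bases past the start, 7.94% held the MEIOSIN/STRA8 motif, 7.15% the E-box, 4.6% the E2F motif and 28.3% an A-MYB motif. *Zcwpw1* had 1 A-MYB match in each of its 2 windows, at -26 in the one shown and at -153 in the other. Neither *Mei4* nor *Gm960* matched any of the 4 motifs, and neither did the *Mei1* window, which lies inside the gene. The *Ccdc36* window (chr9:108431777-108432076) had no match either, and it lies outside the GENCODE gene, before its start at 108428484. Over the full windows of the promoters shown, the ratio of observed to expected CpG was 0.63 for *Prdm9*, 1.06 for *Zcwpw1*, 0.58 for *Mei4* and 0.25 for *Gm960*. It was 0.35 in the other *Prdm9* window and 0.95 in that of *Zcwpw1*, against a median of 0.38 over all promoters. These matches describe letters in a window and were not tested for binding.

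The libraries held 5812380 to 13820953 reads, fewest in the 3 SKO LZ libraries (5812380 to 7609420). *Nat10* was lower in *Nat10*-SKO in every stage, with log2 fold changes of -0.87 in SPG, -1.29 in PreL and -1.47 in LZ, with adjusted p from 0.00469 to 0.0325, and its reads, which counts per gene do not split by exon, remained above 0 in every library. The study had scored sorted cells by immunofluorescence, with most cells of its PreL and LZ sorts at the named stage and no SPG sort listed. Here the stage labels were checked against marker genes by their summed rescaled values, the ERCC-calibrated counts divided by 1 size factor per library. The 7 leptotene and zygotene markers were present in all groups, with sums of 53137 to 54779 in WT SPG, 80296 to 86620 in WT PreL and 74431 to 106758 in WT LZ. The 8 markers of undifferentiated spermatogonia summed to 1410 to 1852 in WT SPG and to 2039 to 3477 in WT LZ, so these markers did not set the SPG libraries apart as their label would. The 10 late spermatocyte markers summed to 75244 to 178956 in WT LZ and to 4959 to 6186 in SKO LZ. The 8 spermatid markers summed to 14377 to 18818 in WT LZ and to 214 to 306 in SKO LZ, where *Acrv1* was at 0. Leydig cell markers summed to 507 to 1105 in WT LZ and to 2475 to 6588 in SKO LZ, and Sertoli cell markers to 6379 to 25624 and to 11863 to 15292. The part of other cells in the genotype differences was not tested. In such sorted bulk samples, fewer cells of a type and less RNA per cell cannot be told apart.

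All 7 members had enough reads to be tested. Their mean over the 17 libraries ran from 114 reads for *Gm960* to 2088 for *Zcwpw1*, and only *Spo11* fell under 10 reads in a library, with 0 of 10810974 reads in SKO SPG replicate 1. That count allows up to 3 reads there, by counting error alone, or a rescaled value of up to 6.03. Compared as RPKM, which scales reads by the library total and the exon length, *Zcwpw1* was the most abundant member in every group and was at 39.8 ± 2.32 in WT PreL (SD, n = 3). *Ccdc36* (23.5 ± 4.39) and *Prdm9* (18.5 ± 3.78) followed in WT PreL, then *Mei1* (10.1 ± 2.48) and *Mei4* (7.75 ± 0.985), and *Spo11* (2.84 ± 2.37) and *Gm960* (2.19 ± 0.656) were lowest. Within each of these 3 pairs the libraries overlapped. In WT LZ *Spo11*, at 26.2 ± 7.91 (n = 2), took the second place behind *Zcwpw1*, at 30.6 ± 0.498, and the libraries of these members overlapped. In SKO LZ *Spo11* stood at 4.31 ± 0.038 (n = 3) and *Zcwpw1* at 16.1 ± 3.51. PCR copies were not marked by molecular identifiers, so intervals of counts cover counting error only.

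**Figure D1:**
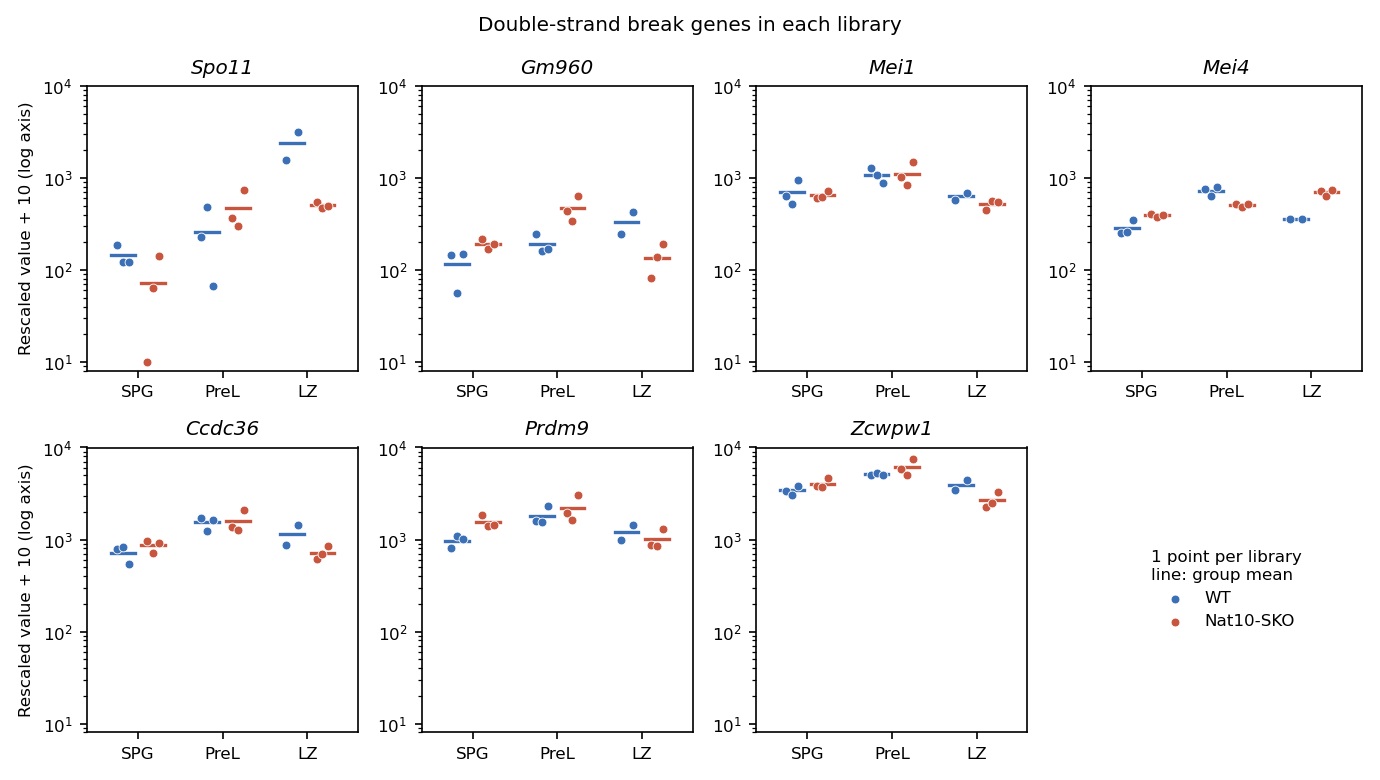
Rescaled value plus 10, on a log axis, of each of the 7 members in each library (1 point per library, line at the group mean) for WT and *Nat10*-SKO in SPG, PreL and LZ. In LZ the WT libraries lie above the *Nat10*-SKO libraries for *Spo11* (1578 and 3166 against 458 to 541) and below them for *Mei4* (347 and 350 against 625 to 725).

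To ask how the loss of *Nat10* touched these genes, the genotypes were compared within each stage with limma over all genes tested. Calls needed a Benjamini-Hochberg adjusted p under 0.05 together with a log2 fold change beyond 1 in either direction. Fold changes are on the scale of log2(rescaled value + 10) and understate the change of low genes. In SPG none of the 7 members was called lower and none higher, against 2.07% and 3.95% of the 12846 genes tested. In PreL 0 were called lower (5.83% of 13132 genes) and 1 was called higher (5.34%). In LZ 2 were called lower (25.8% of 13724 genes) and 0 higher (13.4%). The share called lower in LZ, 2 of 7, was thus near that of all genes. The median log2 fold change of the 7 members in LZ was -0.58, against -0.13 for all genes, and 6 of the 7 lay below the latter.

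*Spo11* (chr2:172977700-172993576, plus strand, GRCm38 by GENCODE) encodes the catalytic subunit. Its rescaled values in LZ were 1578 and 3166 in the WT libraries and 541, 458 and 486 in the *Nat10*-SKO libraries. The lowest WT library stood well above the highest *Nat10*-SKO library. The log2 fold change was -2.18 ± 0.31 (SE) with an adjusted p of 0.000896, and *Spo11* was called lower under all 18 alternatives of processing, in which it ranged from -2.73 to -1.68. In LZ the late spermatocyte and spermatid markers were also lower in *Nat10*-SKO, at the sums given above. They were lower in PreL too. There the late spermatocyte markers summed to 10088 to 27496 in WT and 3629 to 4661 in *Nat10*-SKO, and the spermatid markers to 12693 to 20757 and 219 to 294. The part of these markers in the *Spo11* values was not tested. In PreL *Spo11* had values of 216, 474 and 57 in WT and of 361, 290 and 728 in *Nat10*-SKO. In SPG its values were 179, 111 and 111 in WT and 0, 54 and 131 in *Nat10*-SKO. The genotypes overlapped in both earlier stages. Neither difference passed the test, at 1.16 (adjusted p = 0.229) in PreL and -1.42 (adjusted p = 0.206) in SPG. Apart from *Spo11* and *Prdm9*, the members differed in SPG by -0.09 to 0.78, with adjusted p from 0.3 to 0.855.

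*Gm960* (chr19:4625734-4698668, minus strand) encodes TOPOVIBL, the partner subunit. It was called in both later stages, in opposite directions. In PreL its rescaled values were 234, 152 and 158 in WT and 433, 333 and 622 in *Nat10*-SKO. All *Nat10*-SKO libraries lay above all WT libraries, with a log2 fold change of 1.29 ± 0.29 (adjusted p = 0.0175). Markers of other cells also differed in PreL, where Leydig markers summed to 134 to 395 in WT and 915 to 9018 in *Nat10*-SKO, Sertoli markers to 1386 to 1507 and 1420 to 18148, late spermatocyte markers to 10088 to 27496 and 3629 to 4661, and spermatid markers to 12693 to 20757 and 219 to 294. Stage markers differed there as well. Those of pre-leptonema and meiotic entry summed to 61356 to 71093 in WT and 78025 to 127272 in *Nat10*-SKO. Leptotene and zygotene markers summed to 80296 to 86620 and 86658 to 139229. The part of all these markers in the PreL values was not tested. In LZ the values were 236 and 416 in WT and 71, 128 and 180 in *Nat10*-SKO, from 13 to 43 reads per *Nat10*-SKO library. Here the WT libraries were the higher ones, at -1.39 ± 0.48 (adjusted p = 0.0443). Both calls were fragile: the one in PreL was lost without WT PreL replicate 2 (adjusted p = 0.065) or SKO PreL replicate 1 (0.0663), and the one in LZ without either WT library or without SKO LZ replicate 1 or 2, with adjusted p from 0.0895 to 0.293. The LZ call was also lost with a pseudocount of 1 (0.0571), with no filter on low values (0.0591) and with the replicate number as a block (0.0739), and the block took the PreL value under the fold threshold (0.98, adjusted p = 0.0305). The direction was kept each time.

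*Mei4* (chr9:81863670-82206007, plus strand) had rescaled values of 350 and 347 in WT LZ and of 716, 625 and 725 in SKO LZ. Every *Nat10*-SKO library was above both WT libraries. The log2 fold change was 0.95 ± 0.22 with an adjusted p of 0.00819, so that *Mei4* passed the p threshold and stood just under the fold threshold. With edgeR (1.02) and DESeq2 (1.01) on recovered reads it was called. Over its 18 alternatives the value ran from 0.58 to 1.04, and with RPM, which gave the lowest value, the adjusted p was 0.0896. In PreL the order was the other way, with 755, 622 and 779 in WT and 510, 476 and 505 in *Nat10*-SKO. These groups did not overlap either, and the log2 fold change of -0.51 had an adjusted p of 0.0706. On the ERCC-calibrated scale without rescaling the PreL value turned to 0.20. The late spermatocyte and spermatid markers differed between the genotypes in PreL and in LZ, at the sums given above. Their part in the *Mei4* values was not tested.

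*Ccdc36* (chr9:108403611-108428484, minus strand), whose product brings MEI4 and REC114 to the axis, had rescaled values of 869 and 1421 in WT LZ and of 607, 689 and 830 in SKO LZ. All *Nat10*-SKO libraries lay below the WT libraries, by -0.67 ± 0.27 with an adjusted p of 0.071, and the gene was not called. It was called lower with RPM (-1.05, adjusted p = 0.00613) and without WT LZ replicate 2 (-1.07, adjusted p = 0.0305). *Mei1* (chr15:82069996-82126814, plus strand), needed for break formation and for loading of the machinery, had values of 570 and 685 in WT LZ and of 443, 547 and 537 in SKO LZ. Its difference of -0.32 did not pass the test (adjusted p = 0.281). In PreL *Ccdc36* and *Mei1* differed by 0.02 and 0.03, with adjusted p of 0.955 and 0.945, and the sign of both turned when SKO PreL replicate 3 was left out (-0.20 for each).

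*Prdm9* (chr17:15543079-15564354, minus strand) and *Zcwpw1* (chr5:137787798-137822621, plus strand), the writer and the reader of the hotspot marks, were not called between genotypes in any stage. In SPG *Prdm9* had rescaled values of 794, 1078 and 997 in WT and of 1831, 1396 and 1440 in *Nat10*-SKO. The *Nat10*-SKO libraries were all higher, by 0.68 ± 0.19 with an adjusted p of 0.0317, under the fold threshold. The *Nat10*-SKO SPG libraries also held more of the leptotene and zygotene markers, with sums of 73992 to 76699 against 53137 to 54779 in WT SPG, and the part of this difference in the *Prdm9* value was not tested. In PreL and LZ *Prdm9* differed by 0.26 (adjusted p = 0.48) and -0.29 (adjusted p = 0.397). *Zcwpw1* differed by 0.24 in PreL (adjusted p = 0.297). Its values were 3442 and 4377 in WT LZ and 2273, 2465 and 3241 in SKO LZ. All *Nat10*-SKO libraries were below the WT libraries, by -0.58 ± 0.21 with an adjusted p of 0.0521. Exons of *Zcwpw1* overlap exons of *Pilra* on the other strand, and no source used here states whether strand was counted, so that reads of the overlap cannot be assigned.

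**Figure D2:**
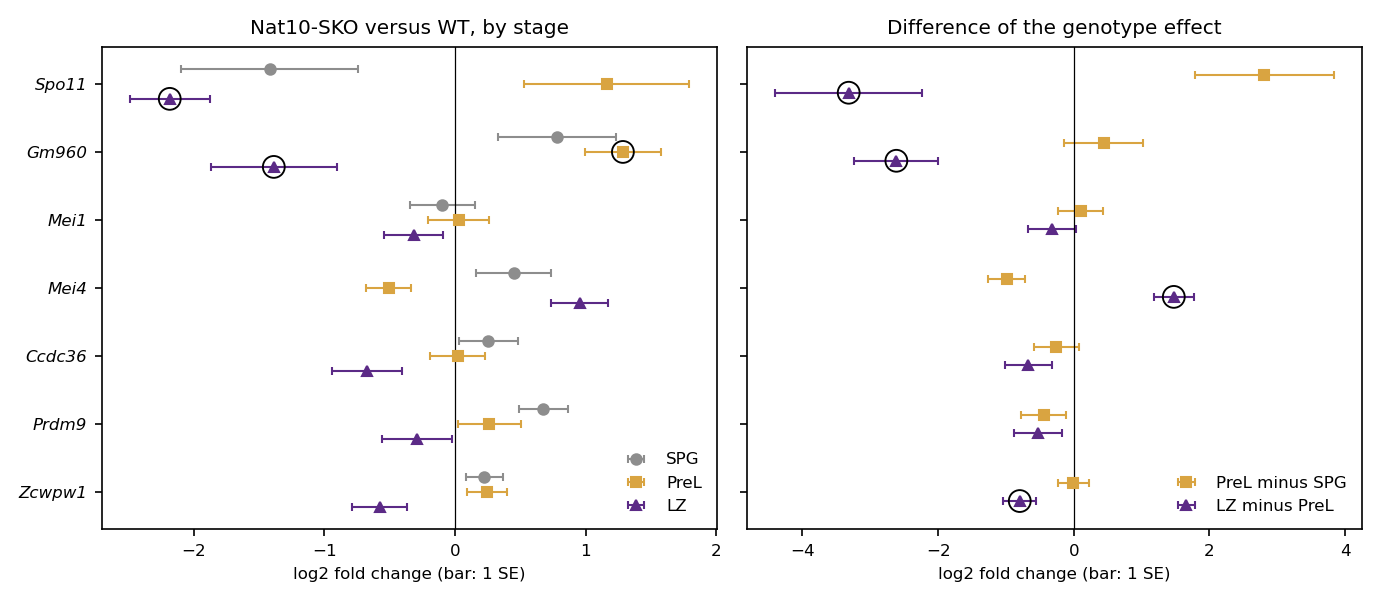
Left, log2 fold change of *Nat10*-SKO against WT for each member in SPG (circles), PreL (squares) and LZ (triangles). Right, difference of that fold change between PreL and SPG (squares) and between LZ and PreL (triangles). Bars are 1 SE, and rings mark values called on the left or past the adjusted p of 0.05 on the right. *Mei4* stands alone to the right of 0 in LZ, at 0.95, and in the difference between LZ and PreL, at 1.48.

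Whether the effect of the genotype itself changed between stages was tested with an interaction term over all 17 libraries, at an adjusted p under 0.05 with no fold threshold. Between SPG and PreL 0 of the 7 members passed in the negative direction (0.111% of 13530 genes) and 0 in the positive direction (0.251%). The difference was 2.81 ± 1.03 for *Spo11* (adjusted p = 0.212) and -0.99 ± 0.28 for *Mei4* (adjusted p = 0.115). Between PreL and LZ 3 members passed in the negative direction (23.1% of 13530 genes) and 1 in the positive direction (15.1%). *Spo11* moved by -3.32 ± 1.09 (adjusted p = 0.0214), *Gm960* by -2.62 ± 0.62 (adjusted p = 0.00279) and *Zcwpw1* by -0.80 ± 0.25 (adjusted p = 0.0152). *Mei4* moved by 1.48 ± 0.29 (adjusted p = 0.000665), while the median of all genes was -0.31. On the ERCC-calibrated scale without rescaling the median of all genes was -1.12, and 6 members passed in the negative direction and none in the positive, with *Mei4* at 0.63 (adjusted p = 0.149). The *Spo11* value was lost without WT PreL replicate 4 (adjusted p = 0.0659) or WT LZ replicate 3 (0.103), and that of *Zcwpw1* without WT LZ replicate 3 (0.0875). *Spo11* kept its call in 23 of 29 alternatives. The value of *Gm960* passed in all 29 alternatives.

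The change of the members along the stages was then followed within each genotype. From SPG to PreL in WT 0 of the 7 were called lower (1.21% of 12657 genes) and 2 were called higher (2.54%). *Mei4* rose by 1.30 ± 0.24 (adjusted p = 0.0128) and *Ccdc36* by 1.06 ± 0.21 (adjusted p = 0.0181), the latter not called without WT SPG replicate 3 (adjusted p = 0.0786) or WT PreL replicate 1 (0.97 on the log2 scale). *Prdm9*, at 0.86 (adjusted p = 0.0314), and *Zcwpw1*, at 0.55 (adjusted p = 0.0326), passed the p threshold and not the fold threshold. All 7 lay above the median of all genes, which was 0.01. In *Nat10*-SKO 0 were called lower (0.947% of 12882 genes) and 2 higher (1.62%). These were *Spo11*, at 3.16 ± 0.76 (adjusted p = 0.0424), and *Gm960*, at 1.26 ± 0.30 (adjusted p = 0.0393), and leaving out any 1 of the 6 libraries ended at least 1 of the calls. *Ccdc36*, at 0.86 (adjusted p = 0.0485), passed the p threshold alone. The *Spo11* call was lost without SKO SPG replicate 1, the library with 0 reads (2.18, adjusted p = 0.0634). It was also lost without SKO SPG replicate 3 (adjusted p = 0.0962) and without any of the SKO PreL libraries (0.0595 to 0.0988). *Spo11* kept this call in 9 of 18 alternatives. On the ERCC-calibrated scale all 7 members were called higher here, with a median shift of all genes of 1.01.

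In WT 1 member was called lower from PreL to LZ (7.8% of 13759 genes) and 1 higher (18.8%). *Spo11* rose by 3.40 ± 0.70 (adjusted p = 0.00725), from 57 to 474 in PreL to 1578 and 3166 in LZ, and was not called without WT LZ replicate 3 (2.90, adjusted p = 0.0998). Between the same WT groups the late spermatocyte markers went from sums of 10088 to 27496 to sums of 75244 to 178956, with 9 of 10 called higher, and the Sertoli markers from 1386 to 1507 to sums of 6379 to 25624, with 6 of 6 tested called higher. Spermatid markers summed to 12693 to 20757 in WT PreL and to 14377 to 18818 in WT LZ, with 1 of 8 called higher. The part of these markers in the *Spo11* value was not tested. *Mei4* fell by 1.16 on the log2 scale (SE 0.28, adjusted p = 0.0132), and was not called without WT PreL replicate 1 or WT LZ replicate 3 (adjusted p = 0.0545 and 0.0549). *Mei1* (-0.89, adjusted p = 0.0279) passed the p threshold alone, while *Ccdc36* (-0.58), *Prdm9* (-0.73) and *Zcwpw1* (-0.53) had adjusted p from 0.0523 to 0.126 and *Gm960* (0.65) one of 0.249. These directions hold only relative to the bulk of genes: on the ERCC-calibrated scale without rescaling, where the median gene rose by 1.86, *Mei1* (0.92), *Mei4* (0.65), *Ccdc36* (1.24), *Prdm9* (1.10) and *Zcwpw1* (1.30) all turned positive.

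In *Nat10*-SKO 5 members were called lower from PreL to LZ (6.93% of 12477 genes) and 0 higher (10.6%). The log2 fold changes were -1.22 ± 0.20 for *Zcwpw1* (adjusted p = 0.00168), -1.90 ± 0.37 for *Gm960* (adjusted p = 0.00429), -1.14 ± 0.23 for *Ccdc36* (adjusted p = 0.00458), -1.11 ± 0.23 for *Mei1* (adjusted p = 0.00623) and -1.15 ± 0.26 for *Prdm9* (adjusted p = 0.00929). Without SKO PreL replicate 3, *Ccdc36*, *Mei1* and *Prdm9* kept their p and dropped under the fold threshold (-0.90, -0.85 and -0.87), leaving 2 members called. Between the same *Nat10*-SKO groups the leptotene and zygotene markers went from sums of 86658 to 139229 to sums of 68009 to 86938, with 1 of 7 called lower. Late spermatocyte markers went the other way, from 3629 to 4661 to sums of 4959 to 6186. The part of these markers in the values of the members was not tested. *Mei4* (0.43, adjusted p = 0.0517) and *Spo11* (0.18, adjusted p = 0.689) were not called. The *Spo11* value turned to -0.23 with RPM and to -0.11 without SKO PreL replicate 2. On the ERCC-calibrated scale the median gene rose by 0.81, and only *Gm960* was called lower, while *Mei4* (1.27) and *Spo11* (1.02) were called higher.

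**Figure D3:**
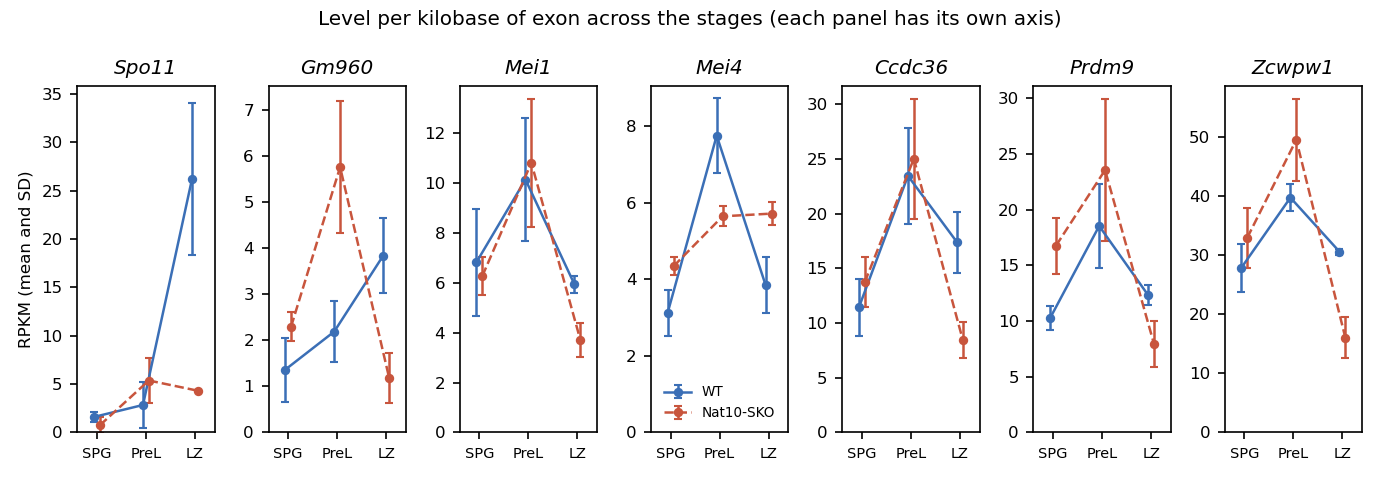
RPKM of each member in SPG, PreL and LZ, as mean and SD over libraries, for WT (solid) and *Nat10*-SKO (dashed), with a separate axis from 0 in each panel, where the SD bar of *Spo11* in SKO SPG is cut off at 0. *Spo11* reaches 26.2 in WT LZ and 4.31 in SKO LZ, while *Mei4* stands at 3.84 in WT LZ and 5.71 in SKO LZ.

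Ratios between members of the same library do not depend on how libraries are scaled. They were taken per kilobase of exon, for 5 pairs chosen after the values had been seen, so they describe the pattern and do not support it. The ratio of *Mei4* to *Ccdc36* was 0.28 and 0.17 in WT LZ and 0.83, 0.64 and 0.61 in SKO LZ. The ratio of *Mei4* to *Mei1* was 0.71 and 0.58 in WT LZ and 1.86, 1.31 and 1.55 in SKO LZ. In both pairs the genotypes were apart in LZ. They were also apart in PreL in the opposite direction, with *Mei4* to *Ccdc36* at 0.31 to 0.35 in WT and 0.17 to 0.27 in *Nat10*-SKO. The ratio of *Spo11* to *Gm960* rose from PreL to LZ in both genotypes, from 0.34 to 2.94 up to 6.32 to 7.19 in WT and from 0.79 to 1.11 up to 2.55 to 7.19 in *Nat10*-SKO. The ratio of *Zcwpw1* to *Prdm9* lay between 1.56 and 3.24 over all groups, and in LZ it was 2.34 to 2.65 in WT and 1.92 to 2.21 in *Nat10*-SKO. That of *Prdm9* to *Ccdc36* was 0.67 to 0.76 and 0.82 to 1.03 in LZ. In LZ the genotypes overlapped for *Spo11* to *Gm960* and were apart for the other pairs. Each of those shares a gene with another, and how often pairs of other genes were apart was not computed. In SPG the genotypes were apart for *Mei4* to *Mei1* (0.42 to 0.56 in WT, 0.63 to 0.77 in *Nat10*-SKO) and for *Spo11* to *Gm960* (0.75 to 2.24 and 0 to 0.69). Over the 15 tests of genotype, 1 for each ratio and stage, the exact two-sided permutation test cannot go below p = 0.1, and the smallest adjusted p was 0.25.

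**Figure D4:**
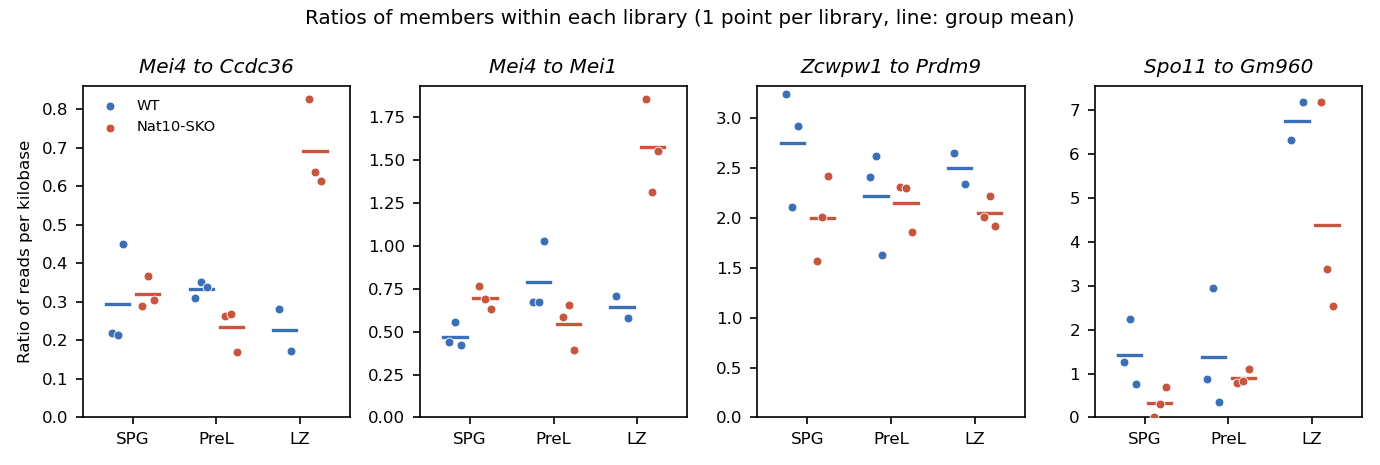
Ratio of reads per kilobase between members of the same library (1 point per library, line at the group mean) for 4 of the 5 pairs in SPG, PreL and LZ. The *Mei4* ratios are highest in SKO LZ (0.61 to 0.83 against *Ccdc36*, 1.31 to 1.86 against *Mei1*).

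Over the 17 libraries *Mei1*, *Ccdc36*, *Prdm9*, *Zcwpw1* and *Gm960* varied alike, with Pearson correlations of log2(rescaled value + 10) from 0.62 to 0.89, the highest between *Mei1* and *Zcwpw1*. *Mei4* and *Spo11* stood outside this set, with correlations to the other members of at most 0.33 and as low as 0.12 for *Mei4* and -0.16 for *Spo11*. The libraries share stage and genotype, so these values are a description. Among the 10255 genes that averaged 50 reads or more, the profile nearest to the mean of the 7 members was that of *Inca1* (0.97), followed by *Ankhd1* (0.94), *Rpain* (0.93), *S100pbp* (0.91) and *Eaf2* (0.91). Nearest to single members were *Smc1b*, a meiotic cohesin gene, for *Zcwpw1* (0.94), *Pak1* for *Prdm9* (0.96), *Pigf* for *Gm960* (0.94), *Lrrc42* for *Ccdc36* (0.93), *Haus8* for *Mei1* (0.91), *Spag5* for *Spo11* (0.91) and *Zfp326* for *Mei4* (0.89).

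The other genes of the pathway were counted from 2 lists. Of 11 partners of break formation and hotspot choice, 9 had a row in the table and *Ankrd31* and *Zcwpw2* had none. In LZ 2 of the 9 were called lower in *Nat10*-SKO (25.8% of all genes) and 0 higher (13.4%), with a median log2 fold change of 0.13 against -0.13 for all genes. *Hormad2*, an axis protein that marks unsynapsed chromosomes, differed by -1.32 ± 0.33 (adjusted p = 0.0127). *Morc2b*, a meiotic member of the MORC family, had 970 to 2233 reads in WT LZ and 0 to 4 in SKO LZ (adjusted p = 0.000167), and was also called lower in PreL (77 to 158 against 0 to 7 reads), the 1 partner called there (5.83% of all genes). In SPG 1 of the 9 was called higher (3.95% of all genes), *Hormad2* at 1.13 (adjusted p = 0.0117). *Rec114*, the direct partner of *Mei4*, did not pass the test in LZ (0.13, adjusted p = 0.555), with rescaled means of 1271 ± 175 (SD, n = 2) in WT and 1407 ± 109 (n = 3) in *Nat10*-SKO. *Trip13*, the ATPase that strips HORMADs from the axis (0.62, adjusted p = 0.0102), and *Atm*, the kinase that limits break number (0.65, adjusted p = 0.00913), passed the p threshold and not the fold threshold, both higher in *Nat10*-SKO as *Mei4* was. For the difference of genotype effects between PreL and LZ, 3 of the 9 passed in the negative (23.1% of all genes) and 3 in the positive direction (15.1%).

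Of 20 genes of break processing and strand invasion, 2 were called lower in LZ (25.8% of all genes) and 0 higher (13.4%), with a median of -0.23. *Psmc3ip* (*Hop2*), an accessory factor of the strand exchange proteins, differed by -2.35 ± 0.22 (adjusted p = 0.000144), and *Hsf2bp*, which links BRCA2 to meiotic recombination, by -2.02 ± 0.26 (adjusted p = 0.000551). *Meiob*, a single-strand binding protein (-0.76, adjusted p = 0.0183), and *Rpa1* (-0.73, adjusted p = 0.0485) passed the p threshold and not the fold threshold, both lower in *Nat10*-SKO. *Dmc1*, the meiotic recombinase (0.21, adjusted p = 0.458), and *Mnd1*, the partner of *Psmc3ip* (0.25, adjusted p = 0.389), did not pass. In PreL 3 of the 20 were called higher (5.34% of all genes) and 0 lower (5.83%), among them *Mnd1* (1.03, adjusted p = 0.014) and *Meiob*, a single-strand binding protein (adjusted p = 0.0431). In SPG 19 of the 20 had enough reads to be tested, and 1 was called higher (3.95% of all genes), *Mnd1* (1.65, adjusted p = 0.0174). Between PreL and LZ the genotype effect of 4 of the 20 differed in the negative (23.1% of all genes) and of 3 in the positive direction (15.1%). *Hormad1* and *Dmc1* are also among the leptotene and zygotene markers.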

How the data were processed

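Libraries were made by Smart-seq2 with oligo(dT) priming and an ERCC spike-in and were sequenced paired-end. Per the labels and the study's methods, the authors mapped trimmed reads to mm10 (mm9 is named as well) with TopHat2 2.1.1, counted them per gene with HTSeq 0.11.2 and ran DESeq2. Cufflinks 2.2.1 is also listed. The deposited values are a signal, each library's counts times 1 factor from the spike-in and the cell input. Dividing by the smallest value of a library gave back whole reads for 100% of values (within 0.1 read).

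For a comparison, median-of-ratios size factors of its libraries rescaled the calibrated values, and log2(rescaled value + 10) of genes averaging 10 reads or more went into limma 3.58.1 (R 4.3.3, mean-variance trend, Benjamini-Hochberg over all genes tested). limma was chosen as calibrated values are not counts, and edgeR 4.0.16 and DESeq2 1.42.0 on whole reads were tried beside it. Further alternatives changed the scaling (calibrated scale, TMM, RPM), the pseudocount (1, 50), the filter (none, 50 reads), the fold threshold, the libraries in the fit (all, a block by number, thinned, each left out). Displayed values were rescaled over all 17 libraries, and RPKM used the union of GENCODE exons. The tests were run first on simulated data.

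The members and lists were chosen with earlier results of these data known. Other genes are named for the largest called change in LZ, without a row, or by likeness. *Rec114*, *Trip13*, *Atm*, *Dmc1*, *Mnd1*, *Meiob* and *Rpa1* were picked after their values were seen. *Rec114*, *Meiob* and *Meioc* are listed under older symbols, and *Gm4969* has no row. Some values are not reported here, and isoforms were not analysed here.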

Additional observations from a re-analysis of the deposited data

Results flagged for a closer look

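The genotype effect of 4 members differed between PreL and LZ by the interaction term of the limma fit over all 17 libraries. *Spo11* (-3.32, adjusted p = 0.0214), *Gm960* (-2.62, adjusted p = 0.00279) and *Zcwpw1* (-0.80, adjusted p = 0.0152) went down in *Nat10*-SKO relative to WT between these stages. The value of *Spo11* passed in 23 of 29 alternatives, and that of *Zcwpw1* was lost without WT LZ replicate 3 (adjusted p = 0.0875). *Mei4* went up (1.48, adjusted p = 0.000665), where the median of all genes was -0.31, but did not pass on the ERCC-calibrated scale (0.63, adjusted p = 0.149). Its WT LZ values (350 and 347) were the only ones of the 7 members in LZ that both lay under all *Nat10*-SKO values. No group had enough libraries for a test of single outlying libraries.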

How the results depend on the processing

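Counts were low for *Gm960* in SKO LZ (13 to 43 reads) and for *Spo11* in SPG. On the ERCC-calibrated scale the median gene moved by over 0.1 in 8 of the 9 comparisons, from -1.12 to 1.86. There the members called numbered 2 higher in PreL (SKO against WT; 3459 of 13132 genes), 7 higher from SPG to PreL in SKO (5657 of 12882), 5 higher (10992 of 13759) and 0 lower (15) from PreL to LZ in WT, and 2 higher (4409 of 12477) and 1 lower (152) in SKO. For the difference of genotype effects, of 13530 genes, 4 members were positive between SPG and PreL (5938 genes), and 6 negative (6575) and 0 positive (749) between PreL and LZ. Directions turned on that scale for *Ccdc36* (-0.0089) and *Zcwpw1* (-0.046) in SPG, *Mei4* in PreL (0.20) and in the difference between SPG and PreL (0.012), and from PreL to LZ in WT for *Mei1* (0.92), *Mei4* (0.65), *Ccdc36* (1.24), *Prdm9* (1.10) and *Zcwpw1* (1.30). With RPM, the scaling to library totals, 5 members were negative between PreL and LZ (4728 of 13530 genes), where the median of all genes was -0.74. *Spo11* turned to -0.23 from PreL to LZ in SKO with RPM. With a pseudocount of 1, 1 was called lower in LZ (3416 of 13724 genes) and 1 higher from SPG to PreL in SKO (169 of 12882). With no filter, where more genes are tested, 1 was lower in LZ (3952 of 19091 genes). From SPG to PreL 1 was then higher in WT (97 of 18851) and 0 in SKO (149 of 20126). With edgeR and with DESeq2, 1 was called higher in LZ (1832 and 1852 of 13724 genes). Each also called 1 higher from SPG to PreL in SKO (190 and 431 of 12882). DESeq2 put 1 (*Mei4*, -1.01) past the threshold between SPG and PreL (190 of 13530 genes negative). In 1 fit of all libraries, 1 rose from SPG to PreL in SKO (414 of 13530 genes). With no fold threshold, 1 was higher in SPG (799 of 12846 genes) and 1 higher in LZ (2715 of 13724). In WT 4 were then higher from SPG to PreL (540 of 12657) and 2 lower from PreL to LZ (1959 of 13759). The interaction of *Spo11* lost its call with a pseudocount of 1 (adjusted p = 0.147), no filter (0.0523), DESeq2 (0.0765) and the replicate block (0.0623). Causes were not tested.

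Deviations of same-numbered libraries from their group means had correlations from -0.19 to 0.13. With so few libraries per group, these values cannot show whether the numbers pair libraries. With the replicate number as a block, 1 member was called lower in SPG (*Spo11*, -2.23, with 293 of 12846 genes). In PreL 0 were then higher (1260 of 13132), and in LZ 1 was lower (3519 of 13724). From SPG to PreL 1 was higher in WT (432 of 12657) and 1 in SKO (78 of 12882). *Mei1* (-0.34) and *Ccdc36* (-0.15) turned negative in PreL with the block. The block could not be fitted from PreL to LZ in WT, where no residual degrees of freedom remain.

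With each replicate left out, the members called ranged from 0 to 1 higher in PreL, from 1 to 2 lower and 0 to 1 higher in LZ, from 1 to 2 higher from SPG to PreL in WT and 0 to 1 in SKO, from 0 to 2 lower and 0 to 1 higher from PreL to LZ in WT, from 2 to 5 lower in SKO, and from 1 to 4 negative between PreL and LZ. A group left with 1 library was assumed to vary like the other. In comparisons without such a group, the genes called over the whole table ranged as well. From 180 to 1058 were higher in PreL, and from 683 to 981 lower from PreL to LZ in SKO. From SPG to PreL, 78 to 265 were higher in WT and 61 to 365 in SKO. Directions turned for *Mei1* in SPG (-0.30 to 0.13, positive without WT replicate 3), *Ccdc36* in PreL (-0.20 to 0.17, negative without WT replicate 2 or SKO replicate 3), *Mei1* in PreL (-0.20 to 0.21, negative without WT replicate 4 or SKO replicate 3), and *Spo11* from SPG to PreL in WT (-0.20 to 1.17) and from PreL to LZ in SKO (-0.11 to 0.59), each negative without PreL replicate 2.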
